A study of Mus musculus with 11 samples.

Results

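The growth hormone receptor and STAT5 signaling genes examined here were 9 genes chosen by name: *Ghr*, *Jak2*, *Stat5a*, *Stat5b*, *Socs2*, *Cish*, *Igfals*, *Bcl6* and *Cux2*. They are 9 of 54232 gene identifiers in the count files, and each identifier carried a single count in each of 11 libraries of RNA from isolated mouse hepatocytes. The libraries came from adult male C57BL/6 mice of 2 genotypes on 2 diets. *Xbp1* LKO mice lack the unfolded protein response transcription factor XBP1 in hepatocytes through a Cre recombinase driven by the albumin promoter, and *Xbp1* fl/fl mice carry the floxed allele and served as controls. For up to 6 weeks the mice ate either standard chow or the high fat sugar (HFS) diet, a Western diet with fructose and glucose in the drinking water. Chow-fed groups held 3 *Xbp1* fl/fl and 2 *Xbp1* LKO libraries, and HFS-fed groups held 3 libraries of each genotype. Each HFS library pooled hepatocytes of 2 mice, and no pooling is given for chow, so diet and pooling cannot be told apart. Library totals ran from 19191032 to 23888401 counts. Levels are CPM (counts per 1e6 counts) after scaling by the TMM method, which uses a weighted trimmed mean of log gene ratios to a reference library. *Xbp1* itself was at 194 to 221 CPM in chow-fed and 242 to 301 CPM in HFS-fed *Xbp1* fl/fl libraries, and at 95.7 to 135 CPM in the 5 *Xbp1* LKO libraries. These counts cover the whole gene, so how complete the deletion was cannot be read from them. By PCR of a single exon, the paper reports nearly no *Xbp1* signal in *Xbp1* LKO hepatocytes, and it describes the deletion as complete.

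Growth hormone binds its receptor GHR on hepatocytes, which activates the attached kinase JAK2 and leads to phosphorylation of STAT5A and STAT5B. Phosphorylated STAT5 enters the nucleus and switches on genes for the secreted hormone IGF1, its binding partner IGFALS and the inhibitors SOCS2 and CISH, which damp the receptor in turn. In rodents the hormone is released in pulses in males and more evenly in females, and STAT5B, with the repressors BCL6 (male-biased) and CUX2 (female-biased), maintains the sex-biased gene expression of the liver. STAT5 activity itself depends on phosphorylation, which transcript counts do not measure.

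STAT5 binds the palindrome TTCNNNGAA, which reads the same on both strands. RefSeq promoter windows (GRCm38.p6) from 250 bases before to 50 bases after a transcript start were found for 8 of the 9 genes, with 15 starts in all. The palindrome occurred at 5 of these 15 starts, which belong to *Cish*, *Igfals* and *Bcl6*. Over all 32851 starts of the table, 2726 (8.30%) held at least 1 match. The windows that hold a match are shown because *Cish* and *Bcl6* were among the genes that varied most between libraries and *Igfals* is a known hepatic product of the pathway. They run 5′ to 3′ on the strand of the gene, with each match in capitals.
*Cish*, chr9:107296654-107296683, plus strand, inside an annotated exon of *Cish*: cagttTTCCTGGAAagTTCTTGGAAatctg
*Igfals*, first start, chr17:24877598-24877627, plus strand: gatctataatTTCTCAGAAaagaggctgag
*Igfals*, second start, chr17:24878163-24878192, plus strand: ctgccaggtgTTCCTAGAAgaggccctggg
*Bcl6*, first start, chr16:23988951-23988980, minus strand: agcaaattagTTCTCAGAAttccagaggcc
*Bcl6*, second start, chr16:23981358-23981457, minus strand: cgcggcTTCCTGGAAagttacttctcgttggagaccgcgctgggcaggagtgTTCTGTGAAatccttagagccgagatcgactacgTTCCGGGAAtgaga
Counting the first transcribed base as 1, the pair in *Cish* begins at positions 1 and 12, and those of the second *Bcl6* start begin at -168, -122 and -88. Of all starts in the table, 150 (0.457%) held 2 or more matches and 11 (0.0335%) held 3 or more. A match says only that these letters are present, and no binding was measured.

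Per kilobase of exon, the receptor was the most abundant of the 9 transcripts. *Ghr* averaged 72.7 CPM per kb over the 11 libraries, *Igfals* 44.4 and *Stat5b* 13.2 CPM per kb. The ranges of *Ghr* (43.2 to 91.2) and *Igfals* (23.9 to 64.4) overlapped, while *Stat5b* was apart from its neighbours in this order. *Bcl6* (4.36), *Jak2* (3.82), *Cish* (2.87), *Stat5a* (2.70) and *Socs2* (2.05) followed within a narrow range. These 5 overlapped in their values over libraries, so their order was not fixed by the data. Every library had more *Stat5b* than *Stat5a* per kb, with 10.1 to 16.8 against 1.77 to 4.62 CPM per kb. *Cux2* was close to absent, at 0.0149 CPM per kb.

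**Figure D1:**
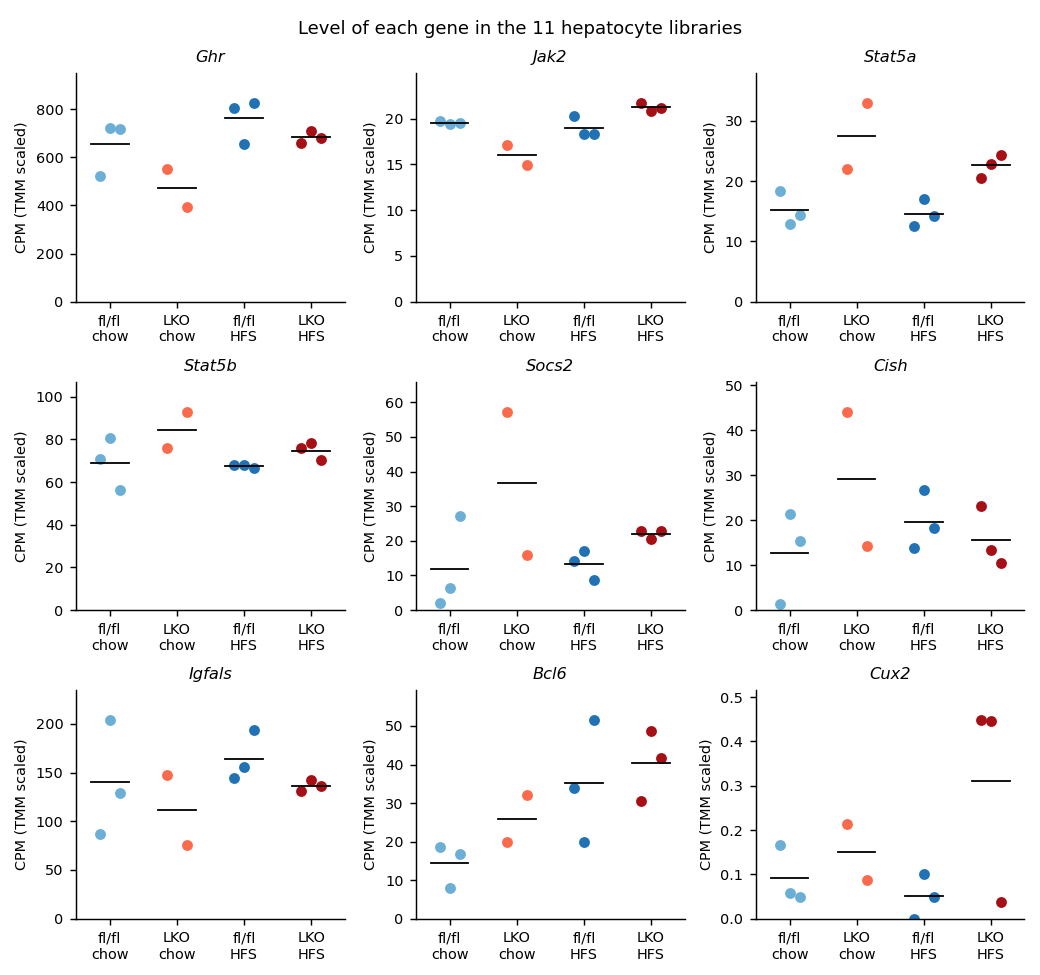
Level of each of the 9 genes in CPM (TMM scaled, linear axes from 0) in the 11 libraries, by genotype and diet. Each point is a library and each line a group mean. *Stat5a* lay at 20.6 to 32.9 CPM in the 5 LKO libraries and at 12.6 to 18.4 CPM in the 6 fl/fl libraries, while *Socs2* and *Cish* spread widely in both chow-fed groups.

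*Ghr* encodes the growth hormone receptor (ENSMUSG00000055737, chromosome 15 from 3317760 to 3583492, minus strand, GRCm38). In chow-fed mice it was at 524, 721 and 717 CPM in *Xbp1* fl/fl and at 552 and 392 CPM in *Xbp1* LKO hepatocytes. The first control library lay between the LKO libraries, so the groups overlapped. In HFS-fed mice it was at 806, 654 and 826 CPM in *Xbp1* fl/fl and at 660.4, 709 and 678 CPM in *Xbp1* LKO hepatocytes, again overlapping. The log2 fold change between genotypes was -0.47 ± 0.19 (standard error) on chow (adjusted p = 0.208) and -0.16 ± 0.17 on the HFS diet (adjusted p = 0.718), by the quasi-likelihood test of edgeR, with p-values adjusted over 13303 genes by the Benjamini-Hochberg method. Scaling by library totals in place of TMM turned the HFS value to 0.10, and it moved the median of all genes by 0.33 on chow and 0.26 on the HFS diet. In *Xbp1* LKO hepatocytes every HFS library was above both chow libraries, with a log2 fold change of 0.53 ± 0.20 that did not pass the threshold of 0.05 (adjusted p = 0.298).

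*Jak2*, the kinase bound to the receptor (ENSMUSG00000024789, chromosome 19 from 29251828 to 29313080, plus strand), was the steadiest of the 9 genes. Chow-fed hepatocytes had 19.7, 19.4 and 19.6 CPM in the fl/fl group and, in the LKO group, 17.2 and 14.9 CPM. With HFS feeding, the fl/fl group had 20.3, 18.3 and 18.4 CPM and the LKO group 21.7, 20.8 and 21.2 CPM. Both LKO libraries were below all controls on chow, and all LKO libraries were above all controls on the HFS diet. The fitted log2 fold change between genotypes was -0.29 ± 0.11 on chow (adjusted p = 0.154, edgeR) and turned to 0.03 when libraries were scaled by their totals. In HFS-fed mice it was 0.16 ± 0.09 (adjusted p = 0.424, edgeR), and 0.42 with library totals. The difference between these 2 effects was 0.45 ± 0.14, which did not pass the adjusted threshold (adjusted p = 0.687, edgeR). Genotype groups that separated in opposite directions on the 2 diets were seen for 115 of 13303 genes (0.864%).

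*Stat5a* was the only one of the 9 genes that passed the test in any comparison. It encodes one of the paired transcription factors (ENSMUSG00000004043, chromosome 11 from 100859351 to 100885169, plus strand). Chow-fed hepatocytes had 18.4, 12.8 and 14.4 CPM in the fl/fl group and, in the LKO group, 22.0 and 32.9 CPM. On the HFS diet the fl/fl group read 12.6, 17.0 and 14.2 CPM, against LKO values of 20.6, 22.9 and 24.4 CPM. The 5 LKO libraries were above the 6 control libraries, whichever the diet. Within a diet, the genotypes did not overlap for 31.3% of all genes on chow and 26.1% on the HFS diet. The share of genes that separate over both diets together was not counted. On chow the log2 fold change was 0.85 ± 0.20 (95% interval 0.42 to 1.28, adjusted p = 0.0327) in edgeR's test. In HFS-fed mice it was 0.63 ± 0.18 (95% interval 0.24 to 1.03), which did not pass in edgeR (adjusted p = 0.0770) and did in DESeq2 (adjusted p = 0.0291). The 2 effects were not shown to differ (difference -0.22 ± 0.27, adjusted p = 0.928, edgeR). The chow call was lost when only the 2 chow-fed groups were fitted (adjusted p = 0.130), or without the second *Xbp1* LKO library (log2 fold change 0.53, adjusted p = 0.386), the second (0.74, 0.102) or the third (0.81, 0.0742) chow-fed *Xbp1* fl/fl library, or the third HFS-fed *Xbp1* fl/fl library (0.85, 0.0534). It stayed positive in all of these. With the replicate number as a block, by title or by file name, the call was also lost, at 0.83 in both (adjusted p = 0.0747 and 0.0686, edgeR). On the HFS diet the edgeR call was gained without either the first (0.63, adjusted p = 0.0453) or the second (0.63, adjusted p = 0.0451) chow-fed *Xbp1* LKO library.

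*Stat5b*, the neighbouring gene (ENSMUSG00000020919, chromosome 11 from 100780731 to 100850724, minus strand) and the main STAT5 of the liver, did not pass. Chow-fed libraries had 70.9, 80.6 and 56.1 CPM in *Xbp1* fl/fl and 75.9 and 93.1 CPM in *Xbp1* LKO hepatocytes. Under HFS feeding the fl/fl group stood at 68.0, 68.0 and 66.8 CPM and the LKO group at 75.8, 78.2 and 70.4 CPM. The groups overlapped on chow and not on the HFS diet. Log2 fold changes were 0.29 ± 0.15 (adjusted p = 0.317, edgeR) on chow and 0.15 ± 0.13 (adjusted p = 0.649, edgeR) on the HFS diet. With library totals the chow value was 0.63 and passed (adjusted p = 0.0201), beside the shift of 0.33 in the median of all genes. The pair share sequence: 608 stretches of 50 bases, the read length, were common to both, which is 8.21% of those in *Stat5a* transcripts and 10.98% of those in *Stat5b* transcripts. Of 184 protein-coding genes whose every transcript was identical to one of another gene, 184 had a count of 0 in all 11 libraries. Over all such genes, coding or not, 1528 of 1570 did. Whether these genes are expressed in hepatocytes was not examined, so the zeros do not settle how reads that fit 2 genes equally were counted. *Stat5a* also shares 72 exonic bases with *Stat3* on the other strand, 1.01% of its exons.

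The feedback inhibitors *Socs2* and *Cish* varied widely between libraries of the same group, most of all on chow. *Socs2* (ENSMUSG00000020027, chromosome 10 from 95385362 to 95417180, minus strand) was at 2.10, 6.42 and 27.2 CPM in chow-fed *Xbp1* fl/fl and at 57.3 and 16.0 CPM in chow-fed *Xbp1* LKO hepatocytes. In HFS-fed mice it was at 14.2, 17.1 and 8.62 CPM in *Xbp1* fl/fl and at 22.9, 20.6 and 22.8 CPM in *Xbp1* LKO hepatocytes. Groups overlapped on chow, while the HFS-fed LKO libraries were all above their controls. The log2 fold change was 1.61 ± 0.74 on chow (95% interval -0.0078 to 3.23, adjusted p = 0.262, edgeR) and 0.73 ± 0.68 on the HFS diet (adjusted p = 0.657, edgeR). Without the third chow-fed *Xbp1* fl/fl library the chow value was 3.11 and passed (adjusted p = 0.0230). In *Socs2* transcripts, 4.53% of 50-base stretches occurred in other genes too.

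*Cish* (ENSMUSG00000032578, chromosome 9 from 107296026 to 107302784, plus strand) was at 1.32, 21.3 and 15.3 CPM in chow-fed *Xbp1* fl/fl and at 44.2 and 14.4 CPM in chow-fed *Xbp1* LKO hepatocytes. After HFS feeding, fl/fl hepatocytes had 13.9, 26.8 and 18.3 CPM, while LKO hepatocytes had 23.1, 13.4 and 10.5 CPM. Groups overlapped on both diets. Log2 fold changes between genotypes were 1.21 ± 0.74 on chow (adjusted p = 0.409, edgeR) and -0.33 ± 0.67 on the HFS diet (adjusted p = 0.870, edgeR). *Socs2* and *Cish* had their lowest level in the same library, the first of the chow-fed fl/fl group, and their highest in the first of the chow-fed LKO group. The highest value was 27.3 times the lowest for *Socs2* and 33.4 times for *Cish*. On the opposite strand 2 genes overlap 11.5% of *Cish* exonic bases, and they had at most 0.572 CPM.

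Among chow-fed libraries, the first of the fl/fl group also stood apart in markers of 3 other cell types. Its 16 macrophage markers summed to 102 CPM, against 24.4 and 24.9 CPM in the other chow-fed controls and 27.8 and 41.1 CPM in chow-fed *Xbp1* LKO libraries. Its 15 endothelial markers summed to 131 CPM, against 55.8 and 68.5 CPM in the other chow-fed controls, and its 14 stellate cell markers to 66.1 CPM, against 19.7 and 24.6 CPM. Its immediate early genes, which respond within minutes to cell isolation, summed to 637 CPM, within the 610.0 to 788 CPM of its group. HFS-fed libraries reached higher marker sums, up to 117 CPM for macrophage, 177 CPM for endothelial and 81.8 CPM for stellate cell markers. A part of these marker levels in the *Socs2* and *Cish* values was not tested. In bulk RNA, fewer cells of a type and less RNA per cell cannot be told apart.

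*Igfals* encodes the liver protein that holds IGF1 in a stable complex in blood (ENSMUSG00000046070, chromosome 17 from 24865997 to 24882010, plus strand). Chow-fed hepatocytes had 87.2, 204 and 129 CPM in the fl/fl group and, in the LKO group, 148 and 75.7 CPM, overlapping. The HFS-fed fl/fl group had 144, 156 and 193 CPM, and the HFS-fed LKO group 131, 143 and 136 CPM. The HFS-fed LKO libraries were all just below their controls. Log2 fold changes were -0.32 ± 0.33 on chow (adjusted p = 0.647, edgeR) and -0.27 ± 0.29 on the HFS diet (adjusted p = 0.717, edgeR). The chow value was above 0 without the second *Xbp1* fl/fl library (0.05) or the second *Xbp1* LKO library (0.08). *Igf1*, the hormone IGFALS carries, is no member of the 9 and was looked at for that role. It was at 381, 672 and 776 CPM in chow-fed *Xbp1* fl/fl, 527 and 322 CPM in chow-fed *Xbp1* LKO, 606, 558 and 599.7 CPM in HFS-fed *Xbp1* fl/fl, and 548, 518 and 448 CPM in HFS-fed *Xbp1* LKO hepatocytes. Its log2 fold changes between genotypes, -0.52 ± 0.28 and -0.22 ± 0.24 on chow and HFS diet, did not pass (adjusted p = 0.341 and 0.725, edgeR). *Igf1* and *Igfals* were each lowest in the second chow-fed *Xbp1* LKO library and next lowest in the first library of the chow-fed fl/fl group.

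*Bcl6* encodes a repressor of female-biased genes in male liver (ENSMUSG00000022508, chromosome 16 from 23965052 to 23988852, minus strand) and had the largest fitted diet effect of the 8 genes with a fold change. In the fl/fl groups it was at 18.5, 7.98 and 16.7 CPM on chow and at 33.9, 20.0 and 51.5 CPM after HFS feeding, with no overlap. The LKO groups had 19.8 and 32.1 CPM on chow and 30.6, 48.6 and 41.7 CPM after HFS feeding. All LKO libraries on chow exceeded their controls, while the genotypes overlapped on the HFS diet. The diet effect in *Xbp1* fl/fl mice was 1.29 ± 0.37 on the log2 scale (95% interval 0.48 to 2.09), which did not pass in edgeR (adjusted p = 0.266) and did in DESeq2 (adjusted p = 0.0271). In *Xbp1* LKO mice it was 0.64 ± 0.40 (adjusted p = 0.541, edgeR), and the 2 diet effects were not shown to differ (difference -0.65 ± 0.54, adjusted p = 0.898, edgeR). The genotype effect was 0.85 ± 0.40 on chow (adjusted p = 0.277, edgeR) and 0.20 ± 0.35 on the HFS diet (adjusted p = 0.846, edgeR), the latter turning to -0.08 without the second HFS-fed *Xbp1* fl/fl library.

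*Cux2*, the female-biased repressor (ENSMUSG00000042589, chromosome 5 from 121856366 to 122050102, minus strand), was nearly silent. Its counts, not scaled, were 3, 1 and 1 in chow-fed *Xbp1* fl/fl, 5 and 2 in chow-fed *Xbp1* LKO, 0, 2 and 1 in HFS-fed *Xbp1* fl/fl, and 11, 12 and 1 in HFS-fed *Xbp1* LKO libraries. It passed the filter on low counts only through HFS-fed *Xbp1* LKO libraries. Of these, 2 had counts above any other library and the third had a count of 1. No fold change or test is given for *Cux2*, since it was tested only through the group where it was high.

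**Figure D2:**
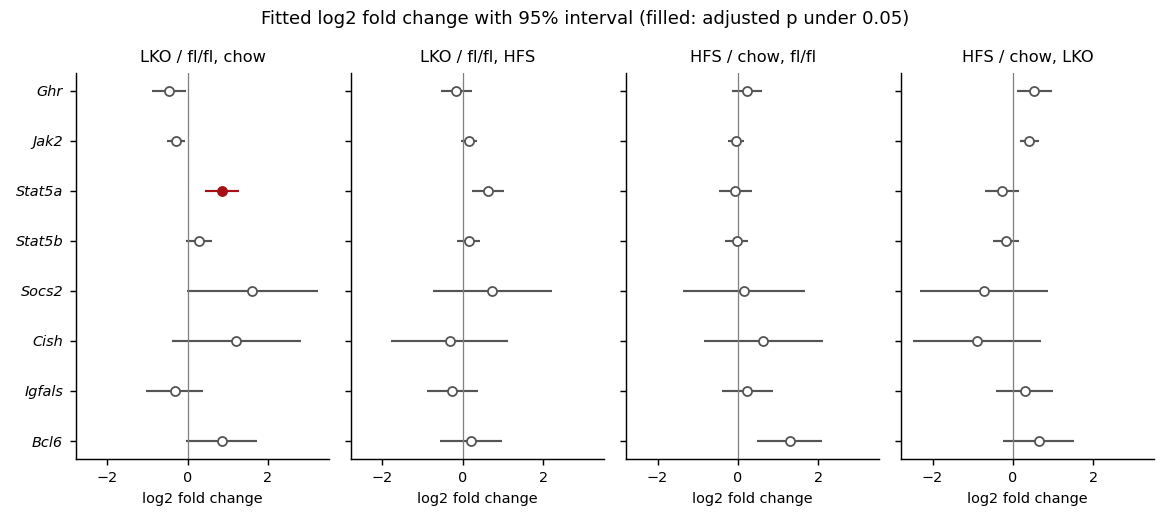
Log2 fold change of 8 genes in 4 comparisons, with 95% intervals from edgeR's model (*Cux2* is left out for its low counts). Filled red marks an adjusted p under 0.05. *Stat5a* on chow is the only filled point, at 0.85, and the intervals of *Socs2* and *Cish* are the widest.

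Counted over the 9 genes, 1 passed between genotypes on chow, *Stat5a*, where 4.75% of all tested genes did, with 3 at an unadjusted p under 0.05 (19.3% of all genes) and 1 in DESeq2 (8.49%). Between HFS-fed genotypes 0 passed in edgeR, against 4.08% of all genes, with 2 at an unadjusted p under 0.05 (17.5% of all genes) and 1 in DESeq2 (7.57%). Of these 2, *Stat5a* and *Cux2*, the latter passed the filter only through the group where it was high and is no evidence of a difference. For the diet effect in *Xbp1* fl/fl mice 0 passed in edgeR (0.428% of all genes did), with 1 at an unadjusted p under 0.05 (8.95%) and 1 in DESeq2 (1.36%). In *Xbp1* LKO mice 0 passed (0.0601% of all genes), with 2 at an unadjusted p under 0.05 (12.7%) and 0 in DESeq2 (1.6%). The genotype by diet interaction called 0 of the 9 and 0 of 13303 genes in edgeR (0%), with 1 and 816 (6.13%) at an unadjusted p under 0.05, and 0 and 29 (0.218%) in DESeq2. Nothing particular to the 9 genes is read from these counts.

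Genes whose groups did not overlap in CPM were counted in the same way. On chow the genotypes did not overlap for *Jak2*, *Stat5a* and *Bcl6*, 3 of 9, beside 31.3% of all genes. On the HFS diet they did not overlap for *Jak2*, *Stat5a*, *Stat5b*, *Socs2* and *Igfals*, 5 of 9, beside 26.1% of all genes. The diets did not overlap in *Xbp1* fl/fl hepatocytes for *Bcl6*, 1 of 9, beside 13.7%, and in *Xbp1* LKO hepatocytes for *Ghr* and *Jak2*, 2 of 9, beside 31.1%. Without *Cux2*, the median log2 fold change between genotypes was 0.57 on chow and 0.15 on the HFS diet, where the median of all genes was 0.0024 and 0.0083. The median diet effect was 0.18 in *Xbp1* fl/fl and 0.06 in *Xbp1* LKO mice, with -0.0056 and -0.0027 over all genes.

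**Figure D3:**
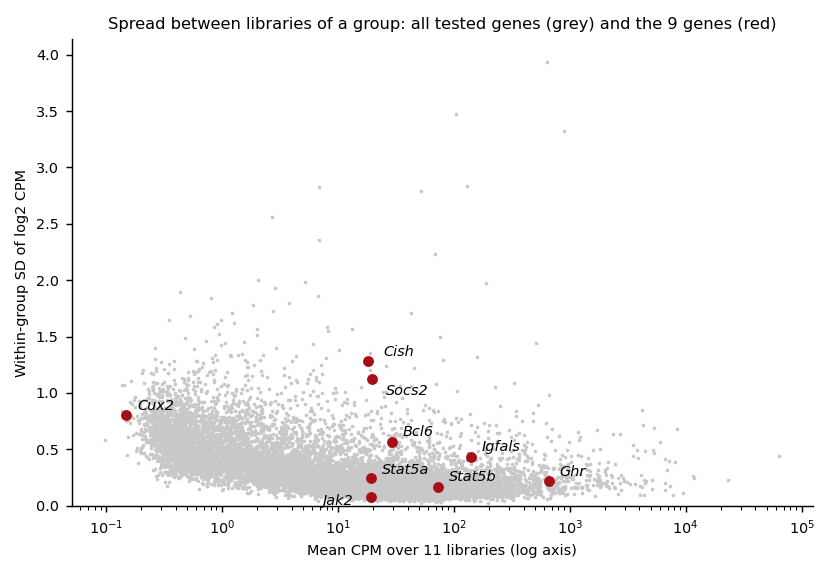
Within-group standard deviation of log2 CPM against mean CPM (log axis) for the 13303 tested genes (grey) and the 9 genes (red). *Cish* (1.28) and *Socs2* (1.12) lie far above genes of a like level and *Jak2* (0.0725) lies at the lower edge.

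The genes differed in how much they varied between libraries of one group. *Cish* had a within-group standard deviation of 1.28 on the log2 CPM scale, larger than that of 99.9% of the 4053 genes within 2-fold of its mean level. *Socs2* had 1.12, larger than 99.8% of 4087 such genes, and *Bcl6* 0.57, larger than 98.1% of 4084. *Igfals* stood at 0.43, above 95.3% of 1526 genes. These 4 genes include the 3 whose promoter windows above hold the palindrome, a coincidence seen after the values were known and not tested, and *Socs2* had no entry in the promoter table. *Stat5a* (0.25, above 78.8% of genes of like level), *Stat5b* (0.17, above 60.0%) and *Ghr* (0.22, above 50.2%) were ordinary. *Jak2*, at 0.0725, exceeded 2.45% of genes of its level. These values describe 11 libraries with 7 residual degrees of freedom. They combine chow-fed groups with HFS-fed groups, whose libraries each pool 2 mice. In chow-fed fl/fl and LKO groups the highest library was 13.0 and 3.57 times the lowest for *Socs2*, and 16.1 and 3.07 times for *Cish*. In the HFS-fed groups it was 1.98 and 1.11 times for *Socs2*, and 1.94 and 2.20 times for *Cish*.

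For each gene the tested genes of at least 1 CPM with the closest profile over the 11 libraries were found by the root mean square difference of mean-centred log2 CPM. *Ghr* was close to *Gm48633* (0.11), *Jak2* to *Kpna3* and *Prorsd1* (both 0.07), *Stat5a* to *Nupl2* and *Tigar* (0.13 and 0.15) and *Stat5b* to *Tspyl1* and *Sympk* (0.05 and 0.06). *Igfals* was nearest to *Caln1* and *Amotl2* (0.16 and 0.19), and *Bcl6* to *Tceal8* and *Lhfpl2* (both 0.45). *Cux2*, at its low counts, was nearest to *Spc24* and *Rcan1* (both 0.53). *Socs2* and *Cish* had no close match. The nearest to *Socs2* were *Pdilt* (0.65) and *Gm26967* (0.65), where its own profile had a spread of 1.18. *Cish* was nearest to *Onecut1* (0.77) and *Acot3* (0.82), and the next gene in its order was *Socs2* (0.82), beside a spread of 1.19.

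The rest of the pathway was read from lists of genes. Of 20 tested signal transducers, among them other JAK and STAT genes and adaptors, 0 passed between genotypes on either diet in edgeR, with 2 on chow and 1 on the HFS diet at an unadjusted p under 0.05 and 0 in DESeq2. Those with the smallest p were *Irs2*, an adaptor of the insulin receptor, on chow (log2 fold change 0.68 ± 0.26, adjusted p = 0.176, edgeR) and *Lyn*, a Src-family kinase, on the HFS diet (-0.22 ± 0.10, adjusted p = 0.268, edgeR). Their diet effects gave 0 calls in both genotypes in edgeR and DESeq2, with 2 at an unadjusted p under 0.05 in each. Of all genes, 19.3% and 17.5% had such a p between genotypes on chow and the HFS diet. For the diet effects in *Xbp1* fl/fl and *Xbp1* LKO mice, 8.95% and 12.7% did. In the same order, 4.75%, 4.08%, 0.428% and 0.0601% of all genes passed in edgeR. In DESeq2 8.49%, 7.57%, 1.36% and 1.6% passed.

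Of 16 other SOCS proteins and phosphatases, 0 passed between genotypes in edgeR, with 2 on chow and 1 on the HFS diet at an unadjusted p under 0.05, and 1 and 0 in DESeq2. *Socs5* was at 3.14, 3.76 and 4.73 CPM in chow-fed *Xbp1* fl/fl and at 2.39 and 1.22 CPM in chow-fed *Xbp1* LKO hepatocytes (log2 fold change -1.10 ± 0.30, adjusted p = 0.0632, edgeR). *Socs3*, an inhibitor induced by cytokines such as IL-6, was at 20.9, 9.19 and 12.9 CPM in chow-fed *Xbp1* fl/fl and at 27.6 and 67.2 CPM in chow-fed *Xbp1* LKO hepatocytes (1.72 ± 0.64, adjusted p = 0.162, edgeR). For neither gene did the genotypes overlap on chow, as for 31.3% of all genes. The diet effects had 0 calls in edgeR in either genotype. In *Xbp1* LKO mice 4 had an unadjusted p under 0.05 and 2 passed in DESeq2, while in *Xbp1* fl/fl mice both counts were 0. For diet, the shares of all genes were 12.7% and 1.6% in *Xbp1* LKO and 8.95% and 1.36% in *Xbp1* fl/fl mice. Between genotypes they were 19.3% and 8.49% on chow, and 17.5% and 7.57% on the HFS diet. In edgeR 4.75% and 4.08% of all genes passed between genotypes.

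Of 14 other receptors of the cytokine class, 2 fell in HFS-fed *Xbp1* LKO hepatocytes and 0 rose, beside 2.16% and 1.92% of all genes. *Ifnar2*, a chain of the type I interferon receptor, was at 39.6, 45.1 and 42.4 CPM in HFS-fed *Xbp1* fl/fl and at 28.9, 28.6 and 26.1 CPM in HFS-fed *Xbp1* LKO hepatocytes (log2 fold change -0.60 ± 0.09, adjusted p = 0.0054, edgeR). *Il4ra*, the receptor chain for interleukin 4, was at 30.6, 32.3 and 32.5 against 21.3, 19.0 and 23.1 CPM (-0.59 ± 0.12, adjusted p = 0.0250, edgeR). On chow 0 passed in edgeR, with 4 at an unadjusted p under 0.05 and 2 in DESeq2, and *Ifnar2* came first (-0.40 ± 0.10, adjusted p = 0.0528, edgeR). Of all genes on chow, 4.75% passed in edgeR, 19.3% had such an unadjusted p and 8.49% passed in DESeq2.

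Within the IGF axis, 10 genes were tested. *Igf2r*, which clears IGF2 and sorts lysosomal enzymes, fell in *Xbp1* LKO hepatocytes on both diets. It was at 62.4, 81.5 and 61.9 CPM in chow-fed *Xbp1* fl/fl and at 47.1 and 38.9 CPM in chow-fed *Xbp1* LKO libraries (log2 fold change -0.67 ± 0.14, adjusted p = 0.0225, edgeR). Among HFS-fed mice it was at 83.4, 74.8 and 83.5 CPM against 47.9, 45.7 and 44.0 CPM (-0.81 ± 0.13, adjusted p = 0.0054, edgeR). *Igfbp2*, a circulating IGF binding protein, fell on the HFS diet, from 742, 434 and 659 CPM to 296, 241 and 123 CPM (-1.48 ± 0.35, adjusted p = 0.0386, edgeR). These 3 falls were the calls of the list, 1 on chow and 2 on the HFS diet, where 3.02% and 2.16% of all genes fell. The diet effects gave 0 calls in edgeR and in DESeq2, with 0 genes at an unadjusted p under 0.05 in *Xbp1* fl/fl and 2 in *Xbp1* LKO mice. Of all genes 8.95% and 12.7% had such a p, 0.428% and 0.0601% passed in edgeR, and 1.36% and 1.6% in DESeq2.

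Genes of known sex-biased expression in mouse liver were read as a male-biased and a female-biased list. Of 21 male-biased genes, 3 fell and 0 rose in chow-fed *Xbp1* LKO hepatocytes, where 3.02% of all genes fell and 1.73% rose, with a median log2 fold change of -0.32 over the list and 0.0024 over all genes. The list did not move as a whole: 7 of its genes were above 0 and 14 below. Markers of hepatocytes, a list of 23 genes, had medians of -0.54 on chow and -0.61 on the HFS diet. Of these markers 4 and 3 fell and 0 rose, where 3.02% and 2.16% of all genes fell. *Gstp1*, a glutathione transferase, was at 486, 649.8 and 504 CPM in *Xbp1* fl/fl and at 201 and 258 CPM in *Xbp1* LKO libraries (-1.25 ± 0.25, adjusted p = 0.0184, edgeR). *Cyp2u1*, a cytochrome P450, was at 14.7, 14.1 and 26.8 CPM against 7.04 and 7.60 CPM (-1.34 ± 0.27, adjusted p = 0.0186, edgeR). *Mup3*, a major urinary protein gene with close relatives that make its count uncertain, was at 6706, 8553 and 10803 CPM against 3569.6 and 2545 CPM (-1.51 ± 0.33, adjusted p = 0.0246, edgeR). For none of the 3 did the genotypes overlap, as for 31.3% of all genes.

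In HFS-fed mice 1 of the 21 male-biased genes fell and 0 rose, beside 2.16% and 1.92% of all genes, with a list median of -0.37. It was *Selenbp2*, a selenium-binding protein gene with a near-identical relative, at 597, 346 and 209.97 CPM in *Xbp1* fl/fl and 145, 38.0 and 22.4 CPM in *Xbp1* LKO libraries (-2.49 ± 0.61, adjusted p = 0.0457, edgeR). Log2 fold changes on the HFS diet were above 0 for 7 of the list and below 0 for 14. In DESeq2 3 of the list passed on each diet, beside 8.49% of all genes on chow and 7.57% on the HFS diet. Between genotypes, 7 of the list on chow and 8 on the HFS diet were at an unadjusted p under 0.05 in edgeR. Of all genes 19.3% and 17.5% were. The diet effects gave 0 calls in both genotypes in edgeR and DESeq2, with 4 genes in *Xbp1* fl/fl and 3 in *Xbp1* LKO mice at an unadjusted p under 0.05. For all genes, 8.95% and 12.7% had such a p, 0.428% and 0.0601% passed in edgeR, and 1.36% and 1.6% in DESeq2.

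Of 21 tested female-biased genes, 2 rose and 0 fell in chow-fed *Xbp1* LKO hepatocytes, beside 1.73% and 3.02% of all genes, with a list median of 0.76. By sign alone, 17 of the list were above 0 and 4 below. *Tox*, a nuclear factor of the HMG-box family, was at 5.90, 3.35 and 3.98 CPM in *Xbp1* fl/fl and at 12.2 and 14.3 CPM in *Xbp1* LKO libraries (1.58 ± 0.36, adjusted p = 0.0311, edgeR). *Cyp2b9*, a cytochrome P450, was at 0.496, 0.231 and 0.0498 CPM against 3.92 and 2.93 CPM (3.73 ± 0.87, adjusted p = 0.0343, edgeR). *Nipal1*, next by p on chow, went the other way and did not pass (-2.36 ± 0.62, adjusted p = 0.0551, edgeR). It was at 4.52, 3.18 and 7.92 CPM against 1.32 and 0.699 CPM. *Cyp2b9* also rose with diet in *Xbp1* fl/fl mice, to 10.4, 3.26 and 21.3 CPM (5.49 ± 0.79, adjusted p = 0.0166, edgeR).

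Among HFS-fed mice 3 female-biased genes rose in *Xbp1* LKO hepatocytes and 1 fell, beside 1.92% and 2.16% of all genes, with a list median of 0.71. By sign alone, 16 of the list were above 0 and 5 below. *Cyp2a4*, a cytochrome P450 that shares most of its sequence with *Cyp2a5*, was at 1.10, 1.17 and 1.47 CPM in *Xbp1* fl/fl and at 18.8, 16.8 and 9.89 CPM in *Xbp1* LKO libraries (3.60 ± 0.40, adjusted p = 0.0016, edgeR). *Ntrk2*, a neurotrophin receptor, was at 1.38, 2.39 and 5.19 against 25.9, 13.3 and 14.3 CPM (2.57 ± 0.64, adjusted p = 0.0492, edgeR). *Slc22a27*, an organic anion transporter gene, had a log2 fold change of 2.19 ± 0.44 (adjusted p = 0.0206, edgeR). It averaged under 1 CPM over the libraries, and its values by library are not given. Whether it passed the filter on low counts only through the HFS-fed *Xbp1* LKO group is not shown, so its rise is not read as evidence of a difference. The gene that fell was *Cyp2b10*, which is induced through the receptor CAR, with 7.34, 23.3 and 20.1 CPM in *Xbp1* fl/fl and 4.24, 0.892 and 2.38 CPM in *Xbp1* LKO libraries (-2.76 ± 0.56, adjusted p = 0.0206, edgeR). *Cyp2a4* also rose with diet in *Xbp1* LKO mice, from 0.853 and 1.00 CPM on chow (4.02 ± 0.48, adjusted p = 0.0225, edgeR). Between genotypes, 9 female-biased genes on chow and 10 on the HFS diet were at an unadjusted p under 0.05 in edgeR. Of all genes 19.3% and 17.5% were. In DESeq2 5 and 4 of the list passed, beside 8.49% and 7.57% of all genes.

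**Figure D4:**
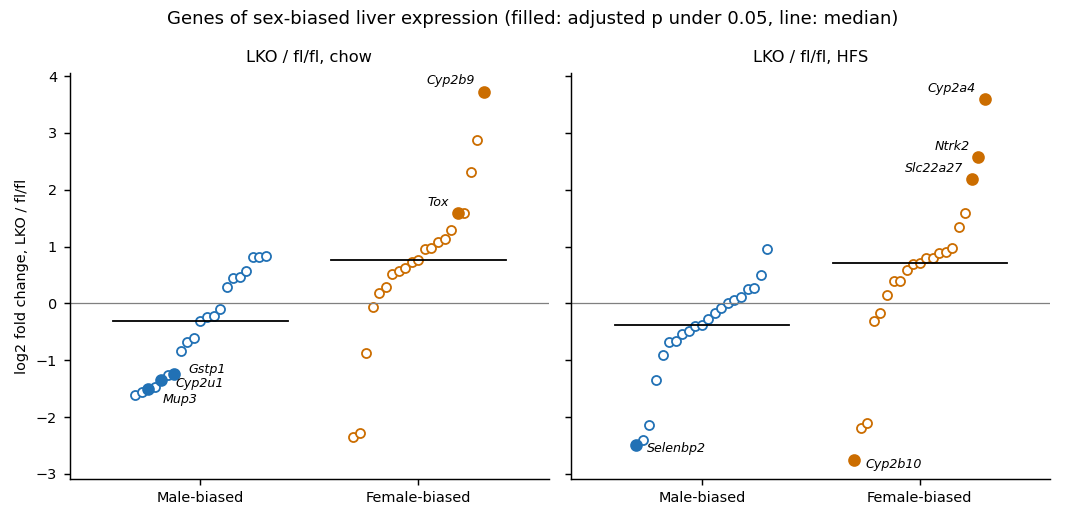
Log2 fold change between genotypes of 21 male-biased and 21 female-biased liver genes on chow (left) and the HFS diet (right). Each circle is a gene, filled at an adjusted p under 0.05, and the line is the list median. Medians lie at -0.32 and -0.37 for male-biased and at 0.76 and 0.71 for female-biased genes.

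Other measures were compared between genotypes beside these lists. The 23 hepatocyte markers found in the files summed to 206491 to 227393 CPM in chow-fed *Xbp1* fl/fl and 85297 to 121381 CPM in the chow-fed LKO group, and to 177697 to 189436 against 98450 to 134133 CPM on the HFS diet. Among 19 tested immediate early genes, 2 rose in *Xbp1* LKO hepatocytes on each diet, *Atf3* and *Myc* on chow and *Atf3* and *Klf6* on the HFS diet, and 0 fell, where 1.73% and 1.92% of all genes rose. The list median was 0.39 on chow, with 13 genes above 0 and 6 below. On the HFS diet it was -0.14, with 8 above and 11 below. All 23 listed genes summed to 610 to 788 CPM in *Xbp1* fl/fl and 827 to 834 CPM in *Xbp1* LKO libraries on chow. On the HFS diet the sums overlapped, at 501 to 899 and 522 to 700 CPM. *Atf3*, a stress-induced factor, had log2 fold changes of 4.80 ± 0.72 (adjusted p = 0.0052, edgeR) and 3.09 ± 0.69 (adjusted p = 0.0304, edgeR).

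On chow, the 15 endothelial markers summed to 55.8 to 131 CPM in *Xbp1* fl/fl and 31.9 to 43.9 CPM in *Xbp1* LKO libraries, and the 14 stellate cell markers to 19.7 to 66.1 and 14.3 to 17.0 CPM. In HFS-fed mice endothelial sums were 105 to 177 and 87.9 to 139 CPM, and stellate cell sums 34.5 to 62.1 and 39.8 to 81.8 CPM. The 16 macrophage markers summed to 45.5 to 65.3 CPM in *Xbp1* fl/fl and 65.4 to 117 CPM in *Xbp1* LKO libraries on the HFS diet. Over all libraries, the 12 cholangiocyte markers summed to 22.2 to 41.4 CPM, and the 15 lymphocyte and neutrophil markers to 0.597 to 6.17 CPM, with 6 of the 15 at 0 in every *Xbp1* fl/fl library of each diet. The part of these levels in the values of *Stat5a*, *Bcl6* and the lists was not tested.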

How the data were processed

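RNA from isolated hepatocytes, purified on Percoll, was sequenced by the authors with a stranded kit as single-end 50-base reads. The authors deposited a whole-number count per Ensembl gene and library, with no normalization. The paper names kallisto and tximport for these values, while the submitters' processing notes name cutadapt 1.13, STAR, HTSeq 0.6.1p1 and the build mm10. Which of them made the counts is not settled, and this could move reads between genes that share sequence. Of 54232 identifiers, 54165 were found in GENCODE M21 (GRCm38), which gave symbols and positions.

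Groups were taken from the labels. Counts were scaled by TMM in edgeR 4.0.16 (R 4.3.3), genes with low counts were removed (filterByExpr, minimum count 10, leaving 13303 genes), and a model of the 4 groups was fitted to 11 libraries for quasi-likelihood tests. P-values were adjusted by the Benjamini-Hochberg method over all tested genes, with a threshold of 0.05. They judge each difference against the spread between these libraries, and each HFS library is a pool of 2 mice. DESeq2 1.42.0, other scalings and filters, replicate blocks and each library left out in turn were alternatives. Log2 CPM used a prior count of 2. The code was tested on simulated counts. The 9 genes and the gene lists were chosen with earlier results of these data known. From each list and comparison up to 3 genes with the smallest p and at least 1 CPM could be named. *Igf1*, *Slc22a27*, *Klf6* and *Myc* were added for their role or to name a whole count, after values were seen. Promoter sequences came from RefSeq (GRCm38.p6). Some named items are not reported here.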

Additional observations from a re-analysis of the deposited data

Results flagged for a closer look

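*Jak2* was marked because its genotype groups separated in opposite directions on the 2 diets. The log2 fold change of *Xbp1* LKO over *Xbp1* fl/fl was -0.29 on chow and 0.16 on the HFS diet, and the difference between them was 0.45 with an adjusted p of 0.687 in edgeR's quasi-likelihood test, so the difference was not past the threshold. Over the alternatives the adjusted p of this difference ran from 0.364 to 1.00. Of 13303 genes, 115 (0.864%) showed such a pattern.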

How the results depend on the processing

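Groups of 2 or 3 libraries limit every result, and a value lost to the test is not shown to be absent. Leaving out 1 of the 2 chow-fed *Xbp1* LKO libraries leaves a lone sample that is assumed to vary like the other groups. Alternatives are compared with the counts of genes past the threshold over all genes (632 for genotype on chow, 543 for genotype on the HFS diet, 57 for diet in *Xbp1* fl/fl, 8 for diet in *Xbp1* LKO and 0 for the interaction), over the 9 genes (1, 0, 0, 0 and 0) and over 6 pathway lists (6, 9, 1, 1 and 0). DESeq2 called 1130, 1007, 181, 213 and 29 genes, with 1 of the 9 for genotype on the HFS diet and 1 for diet in *Xbp1* fl/fl, and 12 list genes for genotype on chow, 2 and 4 for the diet effects and 1 for the interaction. Library totals called 3000 and 1483 genes between genotypes, 2 of the 9 on each diet and 24 list genes on chow. They turned *Jak2* on chow to 0.035 and *Ghr* on the HFS diet to 0.10, and of their chow calls 2685 were higher and 315 lower in *Xbp1* LKO, against 230 and 402 with TMM. On the HFS diet the split was 1288 and 195 against 256 and 287. Without a filter on low counts, 1507, 1438, 499, 722 and 269 genes, 4, 2, 1, 3 and 1 of the 9, and 34, 33, 17, 26 and 18 list genes passed. With only the groups compared, 233 genes and 0 of the 9 passed on chow, 1 of the 9 for genotype on the HFS diet, and 0 genes for diet in *Xbp1* LKO, with 0 list genes for either diet effect.

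Same-numbered libraries are different animals, and their deviations from group means had correlations from -0.20 to 0.23 (mean -0.0083) by title number. A replicate block by title number or by file name number, which differ for 1 chow-fed *Xbp1* LKO library, called 0 of the 9 on chow, with *Stat5a* at 0.83 in both (adjusted p = 0.0747 and 0.0686 by edgeR), and 19 and 53 genes for diet in *Xbp1* LKO.

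With 1 library left out at a time, counts ran from 69 to 762 genes for genotype on chow (69 without the second *Xbp1* LKO and 326 without the second *Xbp1* fl/fl library), 184 to 662 on the HFS diet, 6 to 59 for diet in *Xbp1* fl/fl and 0 to 36 in *Xbp1* LKO. Of the 9 genes 0 to 1 passed between genotypes on each diet. List genes ran from 0 to 7, 3 to 10, 0 to 2 and 0 to 2 in the same order. Log2 fold changes that changed sign ran from -0.89 to 0.077 for *Igfals* and genotype on chow, from -0.082 to 0.58 for *Bcl6* and genotype on the HFS diet, and in *Xbp1* fl/fl mice, for diet, from -0.18 to 0.10 for *Stat5a*, -0.16 to 0.090 for *Stat5b*, -0.35 to 1.65 for *Socs2* and -0.016 to 0.61 for *Igfals*. For diet in *Xbp1* LKO mice they ran from -0.55 to 0.050 for *Stat5a*, -1.37 to 0.46 for *Socs2*, -1.49 to 0.12 for *Cish* and -0.10 to 0.85 for *Igfals*. The cause of these changes was not tested. RLE size factors and a filter of 1 CPM in 2 libraries kept the counts of the 9 genes called and the direction of each named member's value, and called 44 and 45 genes for diet in *Xbp1* fl/fl. The filter called 7 list genes for genotype on chow.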
